A study of Homo sapiens with 10 samples.

Results

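Chemokines are small secreted proteins that direct the migration of leukocytes, and their receptors are membrane proteins that signal mainly through Gi-type G proteins. Ligands are named by the spacing of their first cysteines (CC, CXC, XC and CX3C), and the signalling receptors are named after the ligand class they bind, while the atypical receptors (ACKR) bind chemokines and mostly remove them. In B-cell development CXCR4 and its ligand CXCL12 hold precursors in the bone marrow, CCR7 with CCL19 and CCL21 draws cells to the T-cell zone of lymph nodes, and CXCR5 with CXCL13 draws mature B cells to follicles. The set described here holds the 67 protein-coding genes, of 27142 genes in the table, whose symbols begin with CCL, CCR, CXCL, CXCR, XCL, XCR, CX3CL, CX3CR or ACKR and a digit, and it consists of 45 ligand genes and 22 receptor genes. A further 2 rows with such symbols were a read-through transcript and a pseudogene and were left out.

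RNA was sequenced from the parental 697 line, which grew out of a human pre-B leukaemia, in 2 libraries of cells treated with TPA (12-O-tetradecanoylphorbol-13-acetate) at 0.5 µg/ml and 2 libraries of control cells. TPA is a phorbol ester that activates protein kinase C, and the treatment note gives a span of 0 to 24 h without the time of each library. All 4 libraries come from the same line. Nothing in the labels ties the replicates to separate cultures, so the p-values rest on the scatter of these libraries alone, and that scatter may be technical. The other 6 samples of the series, ChIP-seq of CTCF and linker histone H1 with input DNA, were not analysed here.

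Values are in RPKM, which scales reads by the length of the gene and the size of the library. They added up to 349438 and 388846 with TPA and to 370558 and 386700 in control. From the steps of low values, the other 3 libraries had depths of 91.3% to 97.7% of that of control replicate 1, and the absolute number of reads is unknown. A gene listed at 0 is described only as such. Of 14 B-lineage markers all had at least 1 RPKM in both controls, and after TPA 4 rose and 10 fell, where 28.4% of all genes tested rose and 29.8% fell. Markers of other cells were low with exceptions. The 10 T-cell markers summed to 11.3 and 13.5 RPKM with TPA and to 1.83 and 2.17 RPKM in control, nearly all of it GATA3, with CD3D, CD3E, CD8B and TRAT1 at 0. The 12 myeloid markers summed to 13.0 and 16.3 RPKM with TPA and to 1.23 and 1.75 RPKM in control, mostly CD68 and CSF1R, with FCN1, S100A8, S100A9 and FCGR3A at 0. The 7 NK-cell markers summed to 22.7 and 19.5 RPKM with TPA and to 13.5 and 12.9 RPKM in control, with KLRD1 and NCR1 at 0. Within that sum the genes moved in opposite directions. PRF1 rose to 6.87 and 6.96 RPKM with TPA, against 0.051 and 0.07 RPKM in control, and GZMB rose to 8.26 and 5.71 RPKM with TPA and was listed at 0 in control (adjusted p = 1.06e-06 and 4.11e-06, limma). Both entered the test described below only by reaching 1 RPKM in the TPA libraries, which fixed their direction. NKG7 fell to 7.37 and 6.62 RPKM with TPA, against 13.4 and 12.8 RPKM in control (adjusted p = 0.00103, limma). The 10 stromal and endothelial markers summed to 275 and 226 RPKM with TPA and to 10.9 and 9.74 RPKM in control, almost all of it PDGFRB, with LUM at 0. The T-cell, myeloid, NK-cell and stromal sums were thus all higher with TPA, each through few genes. The chemokine genes described here did not all move that way, as CXCR4 fell. The part of these markers in the results was not tested.

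With TPA, the receptor genes CCR7, CCR1, CX3CR1 and ACKR2 and the ligand genes CCL21, CCL3 and CCL24 rose, and the receptor gene CXCR4 fell. CCR7 averaged 50.6 ± 1.49 RPKM with TPA and 11.5 ± 3.11 RPKM in control, and CXCR4 averaged 29.6 ± 8.98 RPKM with TPA and 66.6 ± 14.2 RPKM in control (mean ± SD, n = 2 libraries in each group here and throughout). On this length-scaled measure CCR7 therefore stood above CXCR4 in both TPA libraries and below it in both control libraries. CCL21 reached 15.1 ± 1.51 RPKM with TPA and was listed at 0 in both controls. These bulk values cannot tell a change in every cell from a change in the share of cells that express a gene, nor fewer cells from less RNA per cell.

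The test was limma on log2(RPKM + 1), run on the 12159 genes that reached 1 RPKM in 2 or more libraries, and a gene passed at a Benjamini-Hochberg adjusted p under 0.05 over all of them. Only 9 of the 67 genes (13.4%) met this filter, against 55.8% of all protein-coding genes in the table. Of these 9, 7 were higher with TPA (28.4% of all genes tested), 1 was lower (29.8% of all genes tested) and 1 did not pass, while 58.2% of all genes tested passed in either direction. The filter itself favours this direction, because 6 of the 9 reached 1 RPKM in the TPA libraries only and so had to differ. The 3 genes at 1 RPKM or more in every library were CCR7, which rose, CXCR4, which fell, and CXCL16, which did not pass. Because 1 is added before the log, differences on this scale are smaller than the true ratio for genes with low values.

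**Figure D1:**
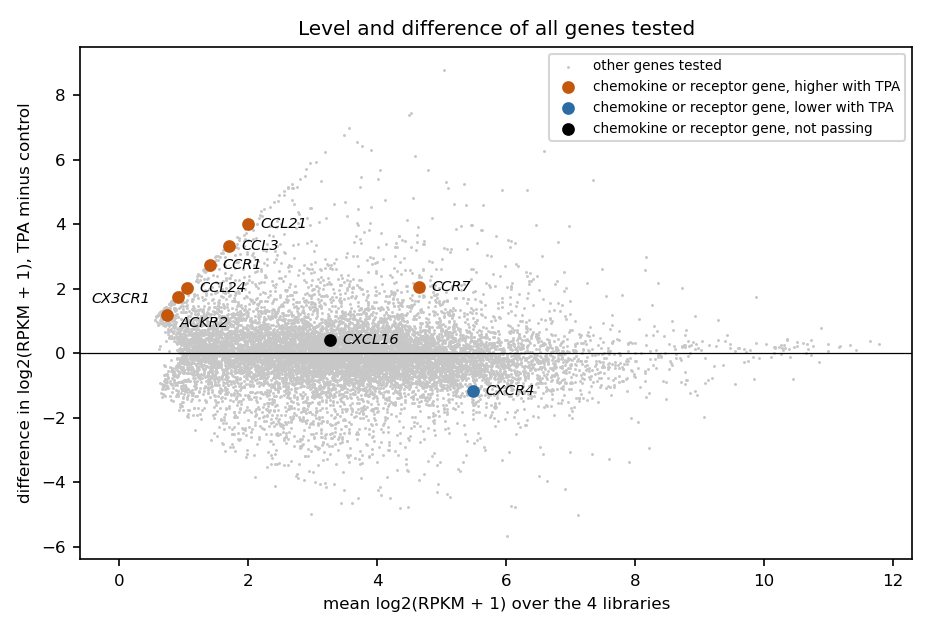
Mean log2(RPKM + 1) over the 4 libraries (x axis) against the difference in log2(RPKM + 1), TPA minus control (y axis), for all 12159 genes tested (grey) and the 9 chemokine and receptor genes among them (coloured by call). CCL21, CCL3, CCR1, CCL24, CX3CR1 and ACKR2 lie on the upper left edge, where genes near 0 in control fall, while CCR7, CXCL16 and CXCR4 lie in the body of the distribution.

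Among the ligands, CCL21 had 16.2 and 14.0 RPKM in the TPA libraries and was listed at 0 in both control libraries. The groups were fully separate, and no other ligand gene had a higher mean with TPA. CCL21 (9p13.3) encodes a ligand of CCR7 made mainly by lymphatic endothelium and lymph node stroma; its difference on the log2(RPKM + 1) scale was 4.01 (SE 0.134, adjusted p = 4.31e-07, limma). CCL19, the other CCR7 ligand gene and the nearest protein-coding gene on one side, was listed at 0 in all 4 libraries, and PHF24, which overlaps CCL21, did not exceed 0.018 RPKM.

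CCL3 (MIP-1α, 17q12), an inflammatory ligand of CCR1, had 8.41 and 10.3 RPKM with TPA and 0.027 and 0.028 RPKM in control. Both TPA values lay far above both controls, and the difference was 3.33 on the log2(RPKM + 1) scale (SE 0.142, adjusted p = 1.04e-06, limma). Its neighbour CCL4 (MIP-1β), an inflammatory CC ligand, had 0.46 and 0.845 RPKM with TPA and was listed at 0 in both controls, below the filter. The near-identical copies CCL3L1 and CCL3L3 each had 0.03 RPKM in TPA replicate 2 and 0.195 and 0.198 RPKM in TPA replicate 1, and were at 0 in control, so reads may have been split between copies.

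CCL24 (eotaxin-2, 7q11.23), a ligand of CCR3 that attracts eosinophils, had 3.73 and 2.69 RPKM with TPA against 0.06 and 0 RPKM in control. The groups did not overlap, and the difference was 2.02 on the log2(RPKM + 1) scale (SE 0.155, adjusted p = 1.86e-05, limma). The neighbouring CCR3 ligand gene CCL26 had 0.078 and 0.252 RPKM with TPA and was listed at 0 in control.

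CXCL16 (17p13.2), a membrane-bound ligand of CXCR6, was the ligand gene with the highest level in control. It had 10.9 and 9.53 RPKM with TPA and 8.83 and 6.13 RPKM in control. The groups did not overlap, but the difference of 0.42 on the log2(RPKM + 1) scale did not pass (95% interval 0.01 to 0.82, adjusted p = 0.0757, limma). With 1 library left out it ranged from 0.18, without control replicate 2 (adjusted p = 0.574), to 0.65, without control replicate 1 (adjusted p = 0.0183, limma), and without TPA replicate 1 or 2 it did not pass (adjusted p = 0.256 and 0.107). The p-values without a control library come from fits with infinite prior degrees of freedom and cannot be set against the others. CXCL16 overlaps MED11 and ZMYND15 in RefSeq, and strand use in counting was not given in the sources used here, so its value is uncertain. MED11 did not pass, with a difference of 0.24, and ZMYND15 rose by 0.53 on the same scale (adjusted p = 0.00790, limma).

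CX3CL1 (fractalkine, 16q21), a ligand made as a membrane protein with a mucin stalk, had 0.577 and 0.422 RPKM with TPA and was at 0 in both controls. It was below the filter. CCL22 and CCL17, the CCR4 ligand genes on either side of it, followed the same pattern at lower values. CCL22 had 0.104 and 0.12 RPKM with TPA and CCL17 had 0.071 and 0.191 RPKM, and both were at 0 in control. The lymphotactin gene XCL1 had 0.112 and 0.103 RPKM with TPA and was also at 0 in control; XCL2, its near-identical copy, had 0.039 and 0 RPKM with TPA.

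**Figure D2:**
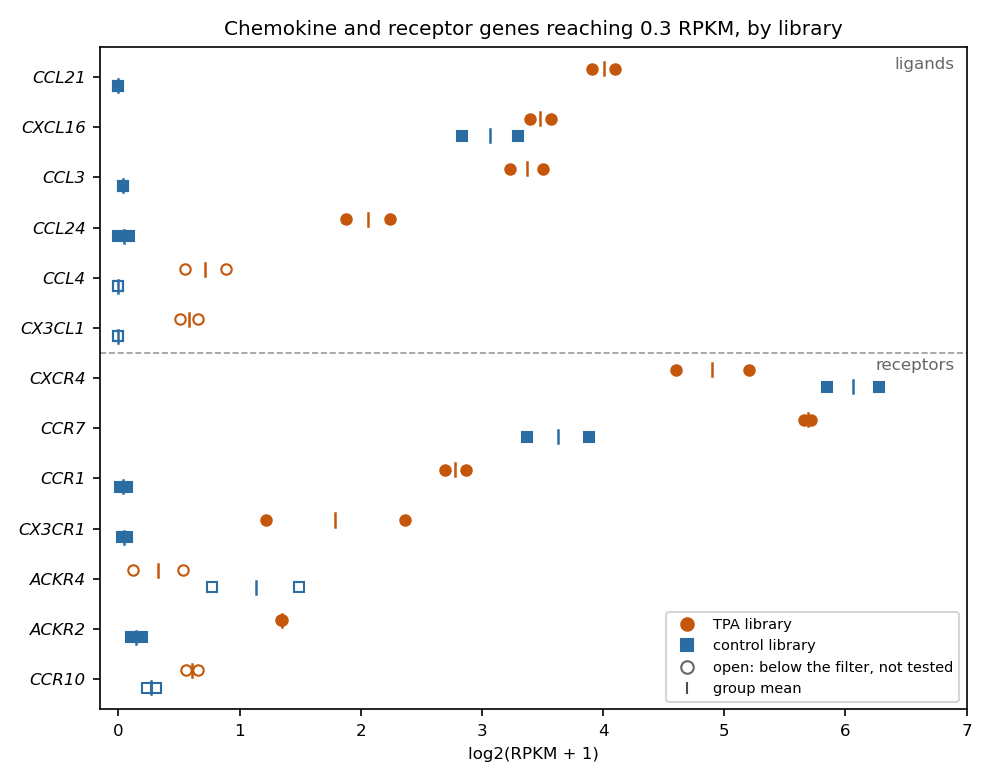
log2(RPKM + 1) in each library (x axis) for the 13 chemokine and receptor genes that reached 0.3 RPKM in at least 1 library, ligands above receptors; each symbol is a library (TPA circles, control squares), short bars are group means and open symbols mark genes below the filter. CXCR4 and ACKR4 have both TPA libraries below both controls, and the other 11 have both above.

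The remaining ligand genes gave little or no signal. Of the 45 ligand genes, 18 were listed at 0 in all 4 libraries and 21 more stayed under 0.3 RPKM in every library. In 17q12, the band of the main CC ligand cluster, 10 of 17 members were at 0 throughout, among them the monocyte attractant CCL2 and the eosinophil attractant CCL11. The neutrophil attractants CXCL8, CXCL1, CXCL3 and CXCL6 (4q13.3) were at 0 in every library, as were the interferon-induced CXCL9 and CXCL10 (4q21.1). CXCL12, the CXCR4 ligand, had 0.168 and 0 RPKM with TPA and 0.164 and 0 RPKM in control. CXCL13, the CXCR5 ligand, had 0.036 and 0.097 RPKM with TPA and 0 and 0.018 RPKM in control. The values of CXCL1, CCL4L1 and CCL4L2 belong to non-coding accessions of these genes.

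Among the receptors, CCR7 (17q21.2) had 49.6 and 51.7 RPKM with TPA and 9.33 and 13.7 RPKM in control, a ratio of the means of 4.39. The TPA libraries lay close together and far above both controls, and the difference was 2.06 on the log2(RPKM + 1) scale (SE 0.181, adjusted p = 3.88e-05, limma). Among genes averaging at least 1 RPKM in the same group, its level stood at the 89.4th percentile with TPA and at the 50.9th in control.

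CXCR4 (2q22.1) had 35.9 and 23.2 RPKM with TPA and 76.6 and 56.5 RPKM in control. Both groups were spread widely but did not overlap, and the mean in control was 2.25 times the mean with TPA. The difference was -1.16 on the log2(RPKM + 1) scale (SE 0.227, adjusted p = 0.00295, limma). CXCR4 had the second highest mean of the receptor genes with TPA, after CCR7, and the highest in control. Its level stood at the 80.2nd percentile with TPA and at the 91.1st in control.

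CCR1 (3p21.31), a receptor for CCL3 and other inflammatory CC ligands that is best known from monocytes, had 6.29 and 5.46 RPKM with TPA and 0.048 and 0.008 RPKM in control. The difference was 2.74 on the log2(RPKM + 1) scale (SE 0.133, adjusted p = 1.87e-06, limma). The receptor genes next to it in the same band stayed far lower. CCR3 had 0.013 and 0.068 RPKM with TPA and CCR2 had 0.019 and 0.01 RPKM, and both genes were at 0 in both controls. XCR1, on the other side of CCR1, was at 0 in every library.

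CX3CR1 (3p22.2), the fractalkine receptor, had 1.32 and 4.15 RPKM with TPA and 0.048 and 0.021 RPKM in control. Both TPA values exceeded the controls but differed widely from each other, and the difference of 1.74 on the log2(RPKM + 1) scale had the largest SE of the 9 genes (SE 0.315, adjusted p = 0.00195, limma). Its 95% interval ran from 1.01 to 2.47.

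Of the 4 atypical receptor genes, 1 was tested. ACKR2 (3p22.1), which encodes a scavenger of inflammatory CC ligands including CCL3, had 1.53 and 1.55 RPKM with TPA and 0.144 and 0.074 RPKM in control, a difference on the log2(RPKM + 1) scale of 1.197 (SE 0.126, adjusted p = 1.07e-04, limma). ACKR4, which encodes a scavenger of CCL19, CCL21 and CCL25, had 0.084 and 0.449 RPKM with TPA and 0.711 and 1.82 RPKM in control, and was below the filter. Its TPA values lay below its controls, and with no filter on low values it did not pass (adjusted p = 0.115, limma). ACKR4 overlaps ACAD11, which rose by 1.07 on the log2(RPKM + 1) scale (adjusted p = 2.15e-04, limma). ACKR1 was at 0 in every library and ACKR3 did not exceed 0.02 RPKM.

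**Figure D3:**
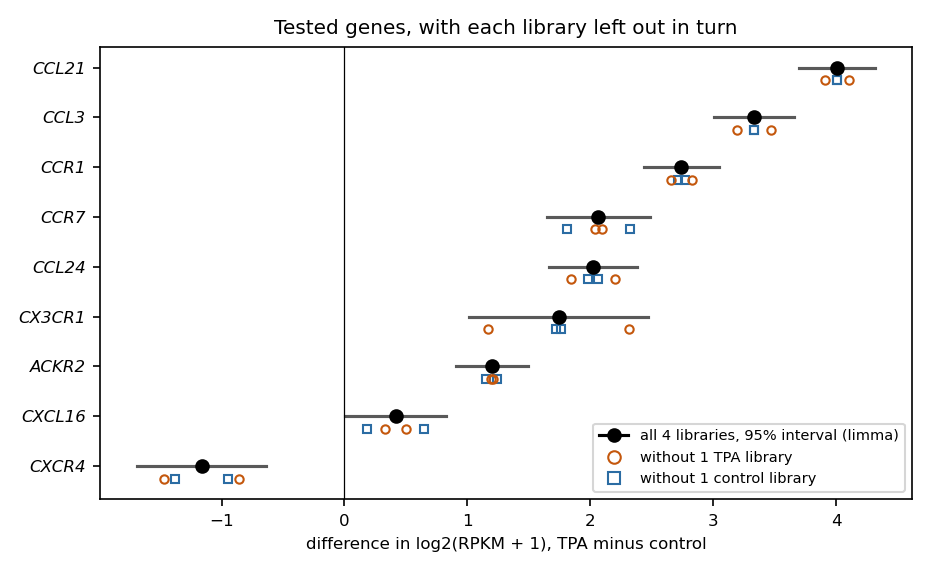
Difference in log2(RPKM + 1), TPA minus control (x axis), for the 9 genes tested, with the 95% interval from limma (black) and the values obtained with each library left out in turn (open symbols: orange circles without a TPA library, blue squares without a control library). CX3CR1 has the widest interval, from 1.01 to 2.47, and CXCL16 ranges from 0.18 to 0.65 when 1 library is left out.

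The other receptor genes were at the low end of the table. CCR10, a receptor of the skin and mucosal ligands CCL27 and CCL28 that plasma cells carry, had 0.579 and 0.47 RPKM with TPA and 0.24 and 0.176 RPKM in control, below the filter. CXCR5, the follicle-homing receptor of mature B cells, had 0.06 and 0.089 RPKM with TPA and 0.044 and 0.038 RPKM in control. CCR6, a receptor of memory B cells for CCL20, had 0.135 and 0.167 RPKM with TPA and 0.099 and 0.055 RPKM in control. CCR4, CCR9, CXCR1 and CXCR2 ranged from 0 to 0.058 RPKM. CXCR3, CCR8 and XCR1 were at 0 in all 4 libraries, and CXCR6, the receptor of CXCL16, did not exceed 0.033 RPKM in any library.

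Across all 67 genes, 22 (32.8%) were at 0 in every library, against 16.7% of protein-coding genes. Both TPA libraries exceeded both controls for 24 (35.8%), against 31.2% of protein-coding genes, and both lay below for 4 (5.97%), against 26.9%. The 4 were CXCR4, ACKR4, CCL25 and CXCR6. In 12 genes (17.9%, against 2.56% of protein-coding genes) both controls were listed at 0 and both TPA libraries were above 0. Of these, 9 stayed under 0.3 RPKM, with values from 0.01 to 0.252 RPKM, and the others were CCL21, CCL4 and CX3CL1. The opposite pattern occurred in 0 genes, against 0.528% of protein-coding genes. A gene listed at 0 in a control cannot lie below it with TPA. Only 20 and 21 of the 67 genes were above 0 in control replicates 1 and 2. Few of the 67 could therefore be lower, and the shares beside those of all protein-coding genes do not measure a direction. When the filter on low values was dropped, 36 more of the 67 could be fitted. Of these 36, limma called 5 higher, CX3CL1, XCL1, CCL22, CCR10 and CCL4 (adjusted p from 0.00559 to 0.0189). All of these but CCR10 were listed at 0 in both controls, which fixed their direction. XCL1 and CCL22 did not exceed 0.12 RPKM in any library. Limma called 0 of the 36 lower, and 0 were lower at an unadjusted p under 0.05. Over the whole fit 19.2% of 20115 genes were higher, but that share includes genes that passed the filter. Of the 45 members above 0 in at least 1 library, 12 were higher in this fit. All of these but CCR7 and CCR10 were under 0.15 RPKM in both controls and had little or no room to be lower. The 12 of 45 therefore cannot be set against the share over the whole fit.

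**Figure D4:**
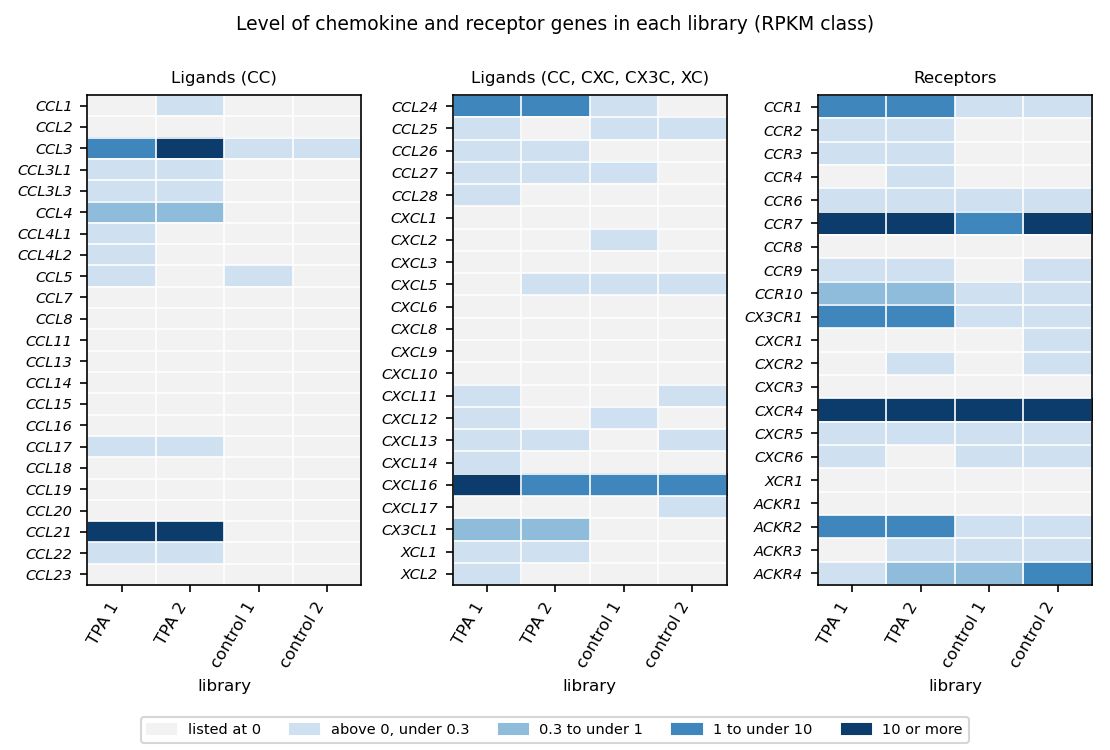
RPKM class of the chemokine and receptor genes (rows) in each library (columns, TPA left of control), from listed at 0 (lightest) to 10 RPKM or more (darkest). Dark cells are few: 9 genes reach 1 RPKM in both TPA libraries and 3 do so in both controls.

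Ligands and receptors known to bind each other were read side by side over 44 pairs listed from textbook knowledge. With TPA, 2 of the listed pairs had both partners at 1 RPKM or more in both libraries, and in control 0 pairs did. These pairs were CCR7 with CCL21 and CCR1 with CCL3. CCL21, CCR1 and CCL3 reached 1 RPKM in the TPA libraries only, so the contrast repeats the values given above. The list is not complete and holds no pair with ACKR2. ACKR2 and CCL3, which its product scavenges, also both reached 1 RPKM in both TPA libraries. CCR7 and CCL21 averaged 50.6 and 15.1 RPKM with TPA and 11.5 and 0 RPKM in control. CCR1 and CCL3 averaged 5.88 and 9.38 RPKM with TPA and 0.028 and 0.0275 RPKM in control. CX3CR1 and CX3CL1 averaged 2.73 and 0.500 RPKM with TPA and 0.0345 and 0 RPKM in control.

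Upstream sequence from RefSeq (build GRCh38.p14, matched by symbol) was available for 45 of the 67 genes, including 5 of the 9 tested; ACKR2, CCL21, CCR7 and CXCL16 had no entry. The 250 bases before the most upstream listed start were searched on both strands for the AP-1 site TGANTCA and for the NF-κB consensus, since AP-1 and NF-κB are well-known nuclear targets of protein kinase C signalling. The windows of 4 genes that changed and of CCL22 are printed, 5′ to 3′ on the gene's strand, with matches in capitals.
CCL3, chr17:36090144-36090393, minus strand: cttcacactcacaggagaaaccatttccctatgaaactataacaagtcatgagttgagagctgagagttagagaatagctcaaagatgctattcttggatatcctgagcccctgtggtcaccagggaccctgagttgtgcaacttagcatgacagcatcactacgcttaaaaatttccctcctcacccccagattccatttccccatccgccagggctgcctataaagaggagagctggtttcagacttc
CCL24, chr7:75823373-75823622, minus strand: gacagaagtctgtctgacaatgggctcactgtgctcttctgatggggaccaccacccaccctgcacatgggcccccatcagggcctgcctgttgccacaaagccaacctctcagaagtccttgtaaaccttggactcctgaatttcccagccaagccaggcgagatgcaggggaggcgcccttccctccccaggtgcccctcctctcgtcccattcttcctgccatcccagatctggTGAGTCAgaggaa
CCR1, chr3:46208314-46208563, minus strand: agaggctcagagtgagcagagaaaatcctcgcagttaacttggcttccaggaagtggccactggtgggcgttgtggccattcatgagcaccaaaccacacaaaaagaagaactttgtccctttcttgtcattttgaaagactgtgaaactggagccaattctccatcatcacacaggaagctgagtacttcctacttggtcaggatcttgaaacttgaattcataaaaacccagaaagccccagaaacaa
CXCR4, chr2:136118150-136118399, minus strand: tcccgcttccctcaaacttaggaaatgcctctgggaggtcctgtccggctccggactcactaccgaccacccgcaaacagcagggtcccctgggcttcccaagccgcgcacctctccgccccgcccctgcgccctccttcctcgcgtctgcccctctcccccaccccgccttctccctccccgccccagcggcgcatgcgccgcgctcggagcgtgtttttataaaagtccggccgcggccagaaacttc
CCL22, chr16:57358533-57358782, plus strand: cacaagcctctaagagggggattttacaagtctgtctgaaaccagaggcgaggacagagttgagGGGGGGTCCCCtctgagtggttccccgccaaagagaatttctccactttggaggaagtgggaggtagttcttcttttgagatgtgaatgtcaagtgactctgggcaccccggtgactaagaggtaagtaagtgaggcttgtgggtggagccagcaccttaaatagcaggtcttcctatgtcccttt

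CCL24 held an AP-1 match 13 to 7 bases before this start, and its other listed start, 9.57 kb away, also had an AP-1 match in its window. The windows of CCL3, CCR1, CXCR4 and CX3CR1 held neither motif at any listed start. CCL22 held overlapping NF-κB matches, the capitals in its window. In all, 7 of 45 members (15.6%) had an AP-1 match, against 6.57% of 27303 promoters. Of these 7, CCL24 was the only gene tested, and the others did not exceed 0.144 RPKM in any library. An NF-κB match was present in 13 of 45 (28.9%), against 11.9%. Of these 13 genes, 6 were at 0 throughout, and the highest value of any in 1 library was 0.177 RPKM. Besides ACKR2, CCL21, CCR7 and CXCL16, the genes CCL4, CX3CL1, CCR10 and ACKR4 also had no entry. Most members that reached 0.3 RPKM could thus not be searched, and the low levels of genes with a match do not relate the motifs to expression. A match or its absence describes these letters in this window only.

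Genes through which chemokine receptors signal were called in both directions. Of 46 tested genes for G proteins, receptor kinases and arrestins, PI3Kγ and the Rac and Rap modules, 18 rose, 14 fell and 14 did not pass, beside 28.4% higher and 29.8% lower over all genes tested. The median difference was 0.08 on the log2 scale, against -0.02 over all genes tested. PREX1, a Rac exchange factor driven by Gβγ and PI3K, had 10.7 and 9.73 RPKM with TPA and 1.46 and 1.27 RPKM in control (adjusted p = 4.59e-06, limma). PTK2B, the kinase PYK2, had 105 and 116 RPKM with TPA and 31.1 and 34.2 RPKM in control (adjusted p = 2.21e-05, limma). These values did not overlap between the groups for either gene. The G-protein β gene GNB4 fell, with 4.73 and 6.48 RPKM with TPA and 21.4 and 27.0 RPKM in control (adjusted p = 5.14e-05, limma). So did the related GNB5, with 1.45 and 1.86 RPKM with TPA and 5.40 and 6.26 RPKM in control (adjusted p = 1.10e-04, limma). Chosen after their values were seen, the receptor kinase genes GRK2 and GRK3, whose products switch off active receptors, also fell, with differences of -0.96 and -0.64, as did GRK6 (-0.82), while GRK5 and the arrestin gene ARRB1 rose, with differences of 0.70 and 0.69. Likewise PIK3CG, the PI3Kγ catalytic subunit gene, rose with a difference of 1.77. GNAI2, the main Gαi gene of leukocytes, had 109 RPKM with TPA and 103 RPKM in control and did not pass (adjusted p = 0.706, limma). Of the other Gαi genes listed, GNAI1 fell, with 5.56 and 8.94 RPKM with TPA and 25.4 and 33.1 RPKM in control (adjusted p = 1.72e-04, limma). GNAI3 did not pass (adjusted p = 0.142, limma).

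A further list held genes that modify chemokines or their receptors, with non-classical ligands and receptors. Among its 16 tested genes there were 10 that rose, 2 that fell and 4 that did not pass, beside 28.4% higher and 29.8% lower over all genes tested. Of the 10, 2 (CCRL2 and PITPNM3) were under 1 RPKM in both controls and passed the filter only through the TPA libraries, which fixed their direction. The median difference was 0.80, against -0.02 over all genes tested. ADAM17, a protease that sheds membrane proteins including fractalkine, had 160.0 and 148 RPKM with TPA and 18.5 and 17.6 RPKM in control (adjusted p = 1.14e-06, limma). TPST2, which sulfates tyrosines in receptor N-termini, had 49.2 and 48.7 RPKM with TPA and 12.4 and 10.9 RPKM in control (adjusted p = 9.58e-06, limma). HMGB1, whose protein can pair with CXCL12, fell, with 17.6 and 23.3 RPKM with TPA and 67.0 and 81.8 RPKM in control (adjusted p = 6.42e-05, limma). MIF, a non-classical CXCR4 ligand, fell, with 531 and 292 RPKM with TPA and 955 and 584 RPKM in control (adjusted p = 0.0331, limma).

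Other leukocyte chemoattractant and positioning receptors were mostly below the filter. Of 9 tested, 4 rose, 0 fell (limma; 0 were lower at an unadjusted p under 0.05) and 5 did not pass, beside 28.4% higher and 29.8% lower over all genes tested. Of the 4, 3 (GPR18, S1PR1 and C3AR1) were under 1 RPKM in both controls, so the filter fixed their direction, and the count and the median difference of 0.39 describe these libraries only. GPR18, a lymphocyte G-protein-coupled receptor, had 16.1 and 17.7 RPKM with TPA and 0.509 and 0.299 RPKM in control (adjusted p = 6.61e-07, limma). S1PR1, the sphingosine 1-phosphate receptor that guides lymphocyte egress, had 2.21 and 2.21 RPKM with TPA and 0.239 and 0.223 RPKM in control (adjusted p = 4.42e-05, limma).

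**Figure D5:**
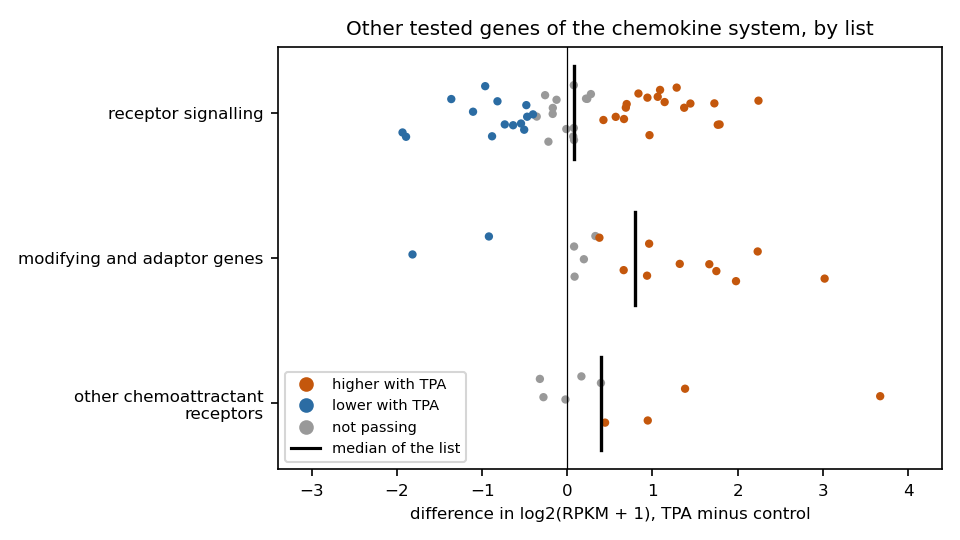
Difference in log2(RPKM + 1), TPA minus control (x axis), for each tested gene (points) of 3 further lists of the chemokine system (rows), coloured by call, with the list median as a black bar. The receptor signalling genes spread to both sides of 0, with a median of 0.08, while the modifying genes have a median of 0.80.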

How the data were processed

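The authors deposited 1 table with an RPKM value per gene for each of the 4 RNA libraries, per the file headers, with 1 RefSeq accession, symbol and band per gene. CASAVA 1.8, Bowtie 1.12, TopHat, SAMtools and HOMER on hg19 are named in the submitters' processing notes; the sources used here do not give their roles, the use of strand or the handling of reads with several positions. No count model suits RPKM. Genes that reached 1 RPKM in 2 or more libraries were put on the log2(RPKM + 1) scale and tested two-sided, TPA minus control, by limma 3.58.1 under R 4.3.3; the moderated variance followed the mean, with 5.88 prior and 2 residual degrees of freedom. The procedure was tested on simulated data. Differences were placed only in genes whose mean log2(RPKM + 1) over the 4 libraries was well above 0, and that mean was their simulated control level. That test does not cover genes near 0 in control that passed the filter through the TPA libraries. An exact permutation test over 2 against 2 libraries has 0.333 as its smallest p and was not used. Relative depth came from the ratio of genes between 0.03 and 0.15 RPKM.

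Every gene of the set that passed the filter or reached 0.3 RPKM is named, as are, of each signalling list, the 2 with the smallest p in each direction; other low genes were picked for naming with their values known. The members and lists were chosen with earlier results of these data known. A gene of the set is counted in all totals but is not reported here by name or in the plot of all levels. Older symbols were matched through the table's aliases. Figures were drawn with matplotlib 3.10.9. Alternatives changed the pseudocount (0.1, 0.5), the filter (none, 5 RPKM), the scaling (median-of-ratios, quantile), the variance model (no trend, robust) and the threshold (0.01), added the replicate number as a block, or left out each library in turn.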

Additional observations from a re-analysis of the deposited data

How the results depend on the processing

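The calls of the 8 chemokine and receptor genes that passed held their direction and their side of the threshold under every alternative run in which they could be fitted. CCL24, CX3CR1 and ACKR2 could not be fitted with the filter at 5 RPKM. Of the 8, all but CCR7 and CXCR4 reached 1 RPKM in the TPA libraries only. The direction of these 6 was thus set beforehand, and its stability lends no support. In all 8 the groups were separate, so leaving out a library could not reverse a direction. The count of members called higher was 7, and it was 12 with no filter on low values, which brings in genes under 1 RPKM, and 4 with the filter at 5 RPKM, which removes 3 of the 7. The largest adjusted p values among these 8 genes were 0.0406 for CX3CR1 and 0.0403 for CXCR4, both with no filter. Leaving out either TPA library gave 7 members higher and 1 lower. Leaving out a control library gave 7 to 8 higher and 1 lower, the eighth being CXCL16 without control replicate 1, but limma's prior degrees of freedom were then infinite, so those calls and p-values cannot be set against the others. With 1 library left out, the difference of CX3CR1 ranged from 1.17 to 2.31 and that of CXCR4 from -1.465 to -0.86. Over all alternatives the adjusted p of CXCL16 ranged from 0.0148 to 0.574. Over all genes, 3454 were higher and 3621 lower, and with each library left out in turn these counts ranged from 2726 to 3519 and from 2744 to 3679.

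The replicate numbers are shared only as numbers. Deviations of same-numbered libraries correlated at 0.361 over genes, and with 2 pairs this does not establish pairing. With the replicate number as a block, CXCL16 passed (adjusted p = 0.0148), 8 members were higher and 1 lower, and no other call of a member changed. Median-of-ratios scaling shifted all differences by a median of 0.05. Genes near 0 rest on an unknown, small number of reads.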

Other observations

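Protein-coding genes next to members in RefSeq order, read after their values were seen, did not all share the member's behaviour. Over all genes tested, 28.4% rose and 29.8% fell, so a neighbour that moves with a member is common. Near CCL24, HIP1, past CCL26, fell by 0.83 on the log2(RPKM + 1) scale (adjusted p = 0.00218, limma). On the other side RHBDD2 and POR rose by 1.54 and 0.46 (adjusted p = 6.05e-05 and 0.0469, limma). Beside CX3CR1, XIRP1, which encodes an actin-binding protein of striated muscle, had 40.7 and 26.5 RPKM with TPA and 0.032 and 0.025 RPKM in control, and CSRNP1, a nuclear protein gene, rose by 2.65 on the log2(RPKM + 1) scale (adjusted p = 5.99e-06, limma), while SLC25A38, past CCR8 on the other side, did not pass (difference 0.07, adjusted p = 0.692, limma). Beside CCL21, the co-chaperone gene DNAJB5 had 19.6 and 21.2 RPKM with TPA and 2.60 and 2.54 RPKM in control, and VCP did not pass (difference -0.02, adjusted p = 0.927, limma). Beside CXCR4, the replicative helicase gene MCM6 had 17.0 and 17.9 RPKM with TPA and 115 and 121 RPKM in control.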
